A study of Mus musculus with 12 samples.

Results

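The comparison described here is the effect of targeting *Adam17* in MC38CEA cells that had received IL1β plus IFNγ. MC38CEA is a mouse colon adenocarcinoma line that carries carcinoembryonic antigen. Its members are the 6 cytokine-stimulated libraries of a set of 12: 3 libraries of *Adam17*-KD cells, edited with Cas9 and guide RNAs against *Adam17*, and 3 libraries of control cells, which received Cas9 with a guide RNA against EGFP. Both groups were kept with 10 ng/ml of IL1β and 10 ng/ml of IFNγ for 6 h before poly(A)+ RNA was taken, and the other 6 libraries came from the same kinds of cell without cytokines. The labels number the libraries of each group as biological replicates 1 to 3. They do not say whether these were separate edits or cultures of 1 edited population, so the p-values cover only the spread between these libraries.

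ADAM17 is a membrane metalloprotease that cuts the ectodomains of TNF, the TNF and IL6 receptors and several EGF receptor ligands off the cell surface. IL1β acts through MyD88 and NF-κB, which switch on chemokine and acute-phase genes, while IFNγ acts through JAK kinases and STAT factors, which switch on guanylate-binding proteins, antigen presentation genes and, together with NF-κB, *Nos2*. The comparison asks which transcripts differ when both pathways are running and less *Adam17* transcript is present.

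The stimulated libraries held 13201129 to 19549497 counts in *Adam17*-KD cells and 13156871 to 22366424 counts in control cells. Levels are given as CPM, each count scaled to a common library total. Control replicate 2 stood apart from the other 5 libraries: on the leading principal component of the 6 libraries (46.2% of the variance) it scored 52.97, against −27.1 to 23.5 for the others. The nuclear RNA Malat1 had 1500 CPM in control replicate 2, against 261 to 932 CPM in the others. Neat1 was high in control replicate 2 (1194 CPM) and in *Adam17*-KD replicate 2 (1234 CPM), against 179 to 463 CPM elsewhere. On the leading component *Adam17*-KD libraries scored −24.17 to 23.5. The groups overlapped on this component and on the second (19.4%), where *Adam17*-KD libraries scored −32.98 to 28.91 and control libraries −7.876 to 11.5. The third component (16.5% of the variance) placed the 3 *Adam17*-KD libraries at −19.96 to −14.03 and the 3 control libraries at 14.3 to 19.8. Of 22 epithelial marker genes, 2 averaged over 1 CPM. *Epcam* had at most 1 count and *Cdh1* at most 3 counts in any stimulated library, so the epithelial label of the line was not borne out by these markers. Summed fibroblast markers reached 3940 to 4810 CPM in *Adam17*-KD libraries and 2970 to 4630 CPM in control libraries, most of it from *Vim* and *Col3a1*. Summed leukocyte markers, most of it *Cd14*, gave 20.4 to 27.8 CPM and 19.2 to 32.1 CPM, and summed endothelial markers gave 0.725 to 0.776 CPM and 1.06 to 1.46 CPM.

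**Figure D1:**
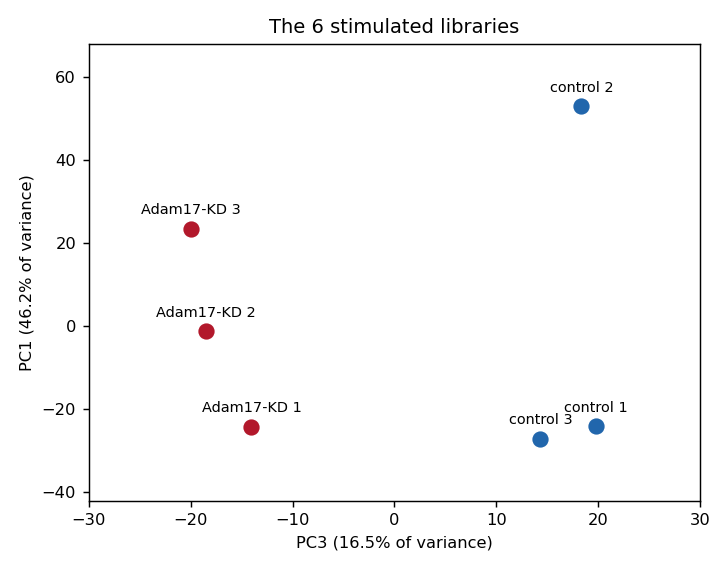
Scores of the 6 stimulated libraries on the third principal component (horizontal, 16.5% of the variance) and the first (vertical, 46.2%), *Adam17*-KD in red and control in blue, numbers giving the replicate. The groups part along the horizontal axis, and control replicate 2 sits alone at 52.97 on the vertical one. The second component (19.4%), on which the groups overlap, is not drawn.

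Few transcripts passed the test. Of 14673 genes tested with edgeR's quasi-likelihood F-test, 5 had a Benjamini-Hochberg adjusted p under 0.05 (0.0341%). Higher in *Adam17*-KD cells were 4 genes (0.0273%), among them *Cp*, *Ccl7* and *Ogn*, and 1 gene was lower (0.00682%), *Adam17* itself. Without the adjustment, 676 genes had p under 0.05, fewer than the 734 that 5% of the genes come to, with 478 of them higher and 198 lower. At an unadjusted p under 0.001 there were 59 genes, 49 higher and 10 lower. The median log2 fold change over all genes was 0.01, 51.4% of genes were on the positive side, and the 5th and 95th percentiles were −0.36 and 0.53. The median 95% interval reached 0.43 on the log2 scale to each side (1.35-fold), so differences smaller than that were not resolved for a typical gene.

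The count rested on single libraries. It was 0 without *Adam17*-KD replicate 1, *Adam17*-KD replicate 2 or control replicate 3, where edgeR still gave 587, 579 and 666 genes at an unadjusted p under 0.05. Without control replicate 2 it was 3, with *Cp* and *Ccl7* still called (adjusted p = 0.0341 for both by edgeR) and 1286 genes at an unadjusted p under 0.05. *Cp* had an adjusted p of 0.0597 to 0.0976 and *Ccl7* of 0.0645 to 0.109 in the 3 fits without a call. *Adam17* lost its call on leaving out any of the 12 libraries but stimulated and unstimulated control replicate 1 (adjusted p = 0.059 to 0.231), and *Ogn* any but unstimulated control replicates 1 and 2 (adjusted p = 0.0515 to 0.166). DESeq2 called 74 genes in the same 12 libraries, 63 higher and 11 lower, and all 5 genes called by edgeR were among them.

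**Figure D2:**
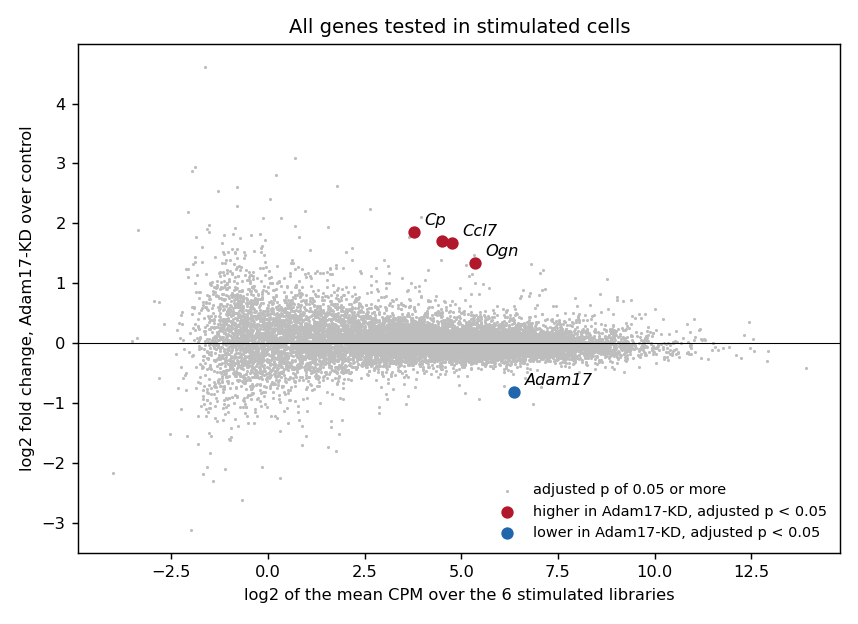
Log2 fold change of *Adam17*-KD over control (vertical) against the log2 of the mean CPM over the 6 stimulated libraries (horizontal), 1 point per gene tested (14673). The 4 genes called higher are in red and *Adam17*, called lower, is in blue; 90% of genes lie between −0.36 and 0.53.

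*Adam17* was measured first, since it was the gene targeted. It lies on chromosome 12 from 21323509 to 21373632 on the minus strand of GRCm38 and is protein-coding. It had 57.1, 59.8 and 62.4 CPM in *Adam17*-KD replicates 1, 2 and 3, against 93.8, 111 and 110 CPM in control replicates 1, 2 and 3. Every *Adam17*-KD library was below every control library, and the transcript fell to 0.569 of the control level (95% interval 0.475 to 0.681, log2 fold change −0.81 ± 0.12 SE, adjusted p = 0.0327, edgeR). Reads of edited alleles that are still transcribed count here like any others, so this is the level of the transcript and not of intact enzyme. Its call did not hold without control replicate 2 (log2 fold change −0.77, adjusted p = 0.0973) or in the 6 stimulated libraries fitted alone (−0.82, adjusted p = 0.216), nor with RLE scaling (−0.81, adjusted p = 0.051), while the fold change hardly moved.

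The closest relative, *Adam10* (chromosome 9, 70678997 to 70780229, plus strand), which encodes the sheddase of Notch, had 30.5, 26.8 and 30.2 CPM in *Adam17*-KD cells and 25.0, 31.8 and 26.2 CPM in control cells. The groups overlapped, and the log2 fold change was 0.08 (95% interval −0.25 to 0.41). Of 17 tested genes of the sheddase machinery, with the iRhoms, tetraspanins and inhibitors that go with ADAM10 and ADAM17, *Adam17* was the 1 called, and the log2 fold changes of the list had a median of 0.06. *Furin*, the convertase that removes the ADAM prodomain, had 186, 204 and 178 CPM in *Adam17*-KD cells, against 212, 223 and 219 CPM in control cells. These groups did not overlap, but the difference did not pass the test (log2 fold change −0.20 ± 0.14).

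*Cp* encodes ceruloplasmin, the copper-carrying ferroxidase of plasma, and lies on chromosome 3 from 19957054 to 20009145 on the plus strand. It had 21.5, 23.2 and 19.5 CPM in *Adam17*-KD cells, against 5.47, 5.54 and 6.65 CPM in control cells. It had the smallest p of all genes tested and rose 3.62-fold (95% interval 2.63 to 4.99, log2 fold change 1.86 ± 0.21, adjusted p = 0.0109, edgeR). Of 19 tested genes of iron and copper handling, no other was called, and the median of the 19 was 0.04.

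*Ogn* encodes osteoglycin, a small leucine-rich proteoglycan of the extracellular matrix, and lies on chromosome 13 from 49608046 to 49624501 on the plus strand. It had 52.5, 51.8 and 70.3 CPM in *Adam17*-KD cells, against 23.5, 21.1 and 24.5 CPM in control cells. It rose 2.52-fold (95% interval 1.88 to 3.38, log2 fold change 1.34 ± 0.20, adjusted p = 0.0327), but not past the threshold without control replicate 2 (adjusted p = 0.0973, edgeR) or with limma-voom (adjusted p = 0.063). Other proteoglycans of its family had groups that did not overlap and were not called by edgeR, while DESeq2 called *Aspn*, *Dcn*, *Omd* and *Prelp* (adjusted p = 0.00575 to 0.0480). *Dcn* (decorin) had 21.3, 19.8 and 18.5 CPM in *Adam17*-KD cells, against 13.7, 9.63 and 11.2 CPM in control cells. *Aspn* (asporin) had 1.89, 2.60 and 1.63 CPM against 0.238, 0.0758 and 0.485 CPM. *Omd* (osteomodulin) had 2.81, 1.81 and 1.55 CPM in *Adam17*-KD cells and 0.357, 0.303 and 0.728 CPM in control cells. In all, 5 of the 7 tested members lay above control in every library and none below, with a list median of 1.34, against 4.83% of all genes above in every library and 3.23% below.

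No collagen transcript was called by edgeR, while DESeq2 on the same 12 libraries called 2, *Col11a1* and *Col1a2* (adjusted p = 0.00113 and 0.00171). *Col1a2*, a chain of the main fibrillar collagen, had 115, 139 and 87.4 CPM in *Adam17*-KD cells, against 70.2, 67.1 and 66.6 CPM in control cells (log2 fold change 0.74 ± 0.15, adjusted p = 0.135). *Col11a1*, of a minor fibrillar collagen, had 12.7, 15.6 and 16.9 CPM against 6.66, 5.46 and 8.97 CPM. *Col4a1*, of the basement membrane collagen, had 190, 208 and 184 CPM in *Adam17*-KD cells and 257, 208 and 272 CPM in control cells. Of 24 collagen and cross-linking genes tested, 6 had every *Adam17*-KD library above control and 1 below, and the median was 0.27 (0.16 without control replicate 2). The shares over all genes were 4.83% above and 3.23% below. The sums of the fibroblast markers, given above, overlapped between the groups, as did *Vim*, the largest part of them. Taken singly, 4 of the 9 tested markers were higher in every *Adam17*-KD library and none lower, with a median of 0.27. None of the 9 was called by edgeR (smallest adjusted p = 0.315), and DESeq2 called 1, *Dcn*. *Dcn* is in the proteoglycan list as well as the fibroblast list, and the part of other cells in these results was not tested. In bulk RNA, a change in the share of cells of a type and a change in the RNA per cell cannot be told apart.

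The RefSeq promoter windows of these genes, 250 bases before to 50 bases after the transcription start (GRCm38.p6), are shown for the called genes *Cp* and *Ogn* and, for contrast, for *Ifit1*, an interferon-induced gene whose level was alike in both groups. Capitals mark matches, on either strand, to the AP-1 motif TGANTCA and the interferon-stimulated response element GAAANNGAA. Windows of *Ccl7*, *Ccl2*, *Nos2* and *Oas1b* were not used here.
*Cp*, chr3:19956804-19957103, plus strand: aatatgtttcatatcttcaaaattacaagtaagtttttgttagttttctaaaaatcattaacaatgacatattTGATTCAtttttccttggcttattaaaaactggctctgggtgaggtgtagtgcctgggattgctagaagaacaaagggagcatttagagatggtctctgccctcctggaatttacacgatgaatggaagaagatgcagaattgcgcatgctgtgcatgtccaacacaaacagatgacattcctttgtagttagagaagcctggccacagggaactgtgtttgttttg
*Ogn*, chr13:49607765-49608064, plus strand: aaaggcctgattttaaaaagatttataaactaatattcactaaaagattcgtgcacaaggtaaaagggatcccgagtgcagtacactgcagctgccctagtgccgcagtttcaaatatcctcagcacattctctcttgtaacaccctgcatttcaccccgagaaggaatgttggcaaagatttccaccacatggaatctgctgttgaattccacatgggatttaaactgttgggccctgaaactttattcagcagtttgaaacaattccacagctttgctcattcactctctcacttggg
*Ifit1*, chr19:34640639-34640938, plus strand: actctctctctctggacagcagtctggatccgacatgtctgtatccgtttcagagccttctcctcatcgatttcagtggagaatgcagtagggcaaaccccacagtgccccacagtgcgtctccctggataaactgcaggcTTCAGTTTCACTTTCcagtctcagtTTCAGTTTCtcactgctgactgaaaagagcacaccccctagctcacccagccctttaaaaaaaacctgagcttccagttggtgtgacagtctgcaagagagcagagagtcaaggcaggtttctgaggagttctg

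*Cp* held 1 AP-1 match, starting 177 bases before the start site, which 7.81% of 32851 promoter windows also hold. A second *Cp* window, from 19956999, held none. *Ogn* and *Adam17* held no match to either motif or to the NF-κB motif GGGANTTTC (1.11% of windows). *Ifit1* held 3 matches to the interferon element, 2 of them overlapping, starting 109, 103 and 84 bases before the start site, and 8.56% of windows hold at least 1. *Ifit1* had 506, 485 and 674 CPM in *Adam17*-KD cells and 478, 587 and 589 CPM in control cells, a log2 fold change of 0.01 (95% interval −0.30 to 0.32). A match is only a run of letters, and binding was not measured.

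*Ccl7* encodes a chemokine that draws monocytes through CCR2 and lies on chromosome 11 from 82045712 to 82047525 on the plus strand. It had 39.8, 45.7 and 38.0 CPM in *Adam17*-KD cells, against 14.4, 10.4 and 13.8 CPM in control cells, and rose 3.19-fold (95% interval 2.32 to 4.37, log2 fold change 1.67 ± 0.21, adjusted p = 0.0149, edgeR). The neighbouring *Ccl2*, which codes for the main CCR2 ligand, ends 8258 bases before it (82035571 to 82037453). *Ccl2* had 586, 631 and 539 CPM in *Adam17*-KD cells, against 298, 220 and 323 CPM in control cells. These groups did not overlap, yet the fold change of 2.09 (95% interval 1.31 to 3.33) had an adjusted p of 0.484 in the fit of 12 libraries. In the 6 stimulated libraries alone, edgeR gave *Ccl2* an adjusted p of 0.159 and DESeq2 1.95e-05, at a log2 fold change of 1.06 and 1.05.

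Of the 15 CC chemokine genes, 7 had enough counts to be tested, and *Ccl7* was the 1 called. The other genes of the same region were nearly silent: *Ccl12* had 2 to 8 counts in *Adam17*-KD libraries and 5 to 7 counts in control libraries, *Ccl8* 5 to 14 and 2 to 5 counts, and *Ccl11* at most 1 and 0 counts. *Ccl5*, which codes for the T cell attractant RANTES, had 294, 225 and 223 CPM in *Adam17*-KD cells, against 220, 188 and 197 CPM in control cells (log2 fold change 0.29 ± 0.16). *Ccl9* had 7.07, 4.53 and 4.74 CPM against 3.45, 1.44 and 1.94 CPM. Thus 4 of 7 tested CC chemokines lay above control in every library and none below, against 4.83% and 3.23% of all genes.

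*Nos2*, the inducible nitric oxide synthase and the response that prompted the study, had 733, 898 and 527 CPM in *Adam17*-KD cells, against 506, 315 and 504 CPM in control cells. The groups did not overlap, with *Adam17*-KD replicate 3 close to the upper controls. The fold change of 1.63 (95% interval 1.16 to 2.29) did not pass the test (adjusted p = 0.633), and it was 0.51 on the log2 scale without control replicate 2 (adjusted p = 0.544, edgeR). *Oas1b*, an oligoadenylate synthetase gene annotated as a polymorphic pseudogene, had 43.9, 62.7 and 32.7 CPM in *Adam17*-KD cells and 34.6, 48.8 and 32.4 CPM in control cells, with overlapping groups. The reference transcripts *Eef2* and *Polr2b* had log2 fold changes of −0.25 ± 0.18 and −0.12 ± 0.14.

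**Figure D3:**
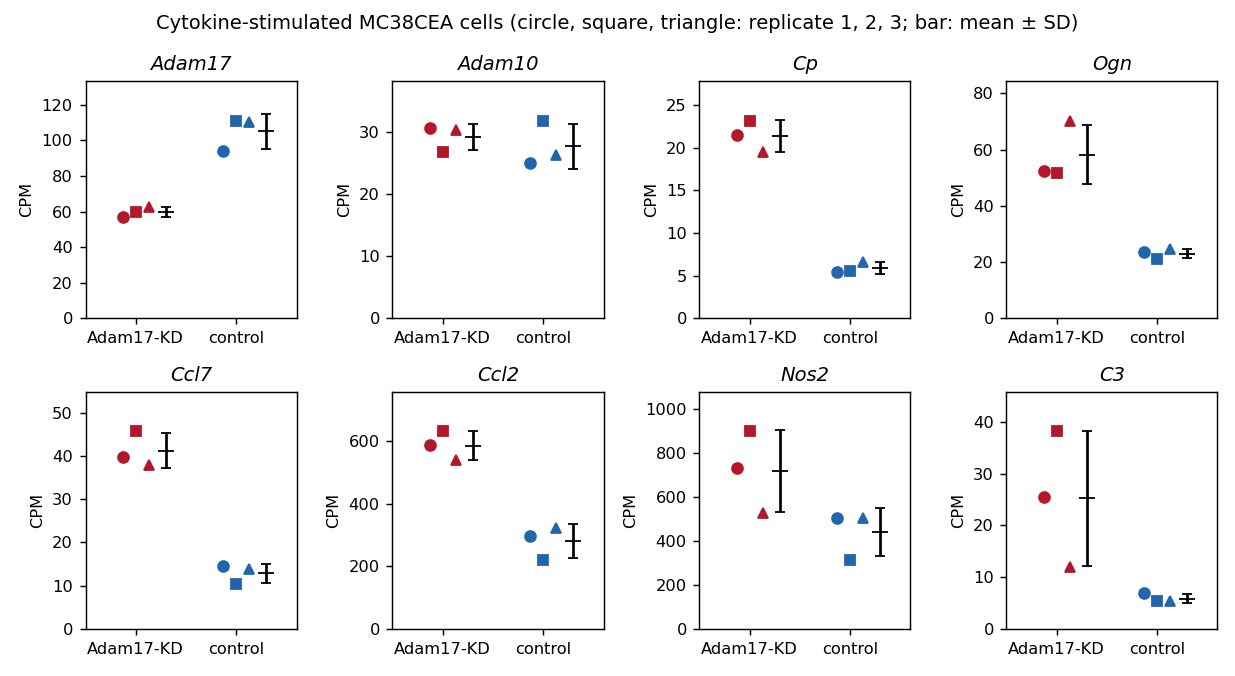
CPM (vertical, from 0) of 8 genes in the 3 *Adam17*-KD libraries (red, left) and the 3 control libraries (blue, right), with circle, square and triangle for replicates 1, 2 and 3 and the mean ± SD beside them. *Adam17* is lower and *Cp*, *Ogn*, *Ccl7*, *Ccl2*, *Nos2* and *C3* are higher in every *Adam17*-KD library, while *Adam10* overlaps.

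Among CXC chemokines, *Cxcl9* and *Cxcl10*, both ligands of CXCR3 induced by IFNγ, are given side by side. *Cxcl9* had 413, 505 and 556 CPM in *Adam17*-KD cells, against 242, 313 and 280 CPM in control cells (log2 fold change 0.82 ± 0.23, adjusted p = 0.441). *Cxcl10* had 5096, 5460 and 6060 CPM in *Adam17*-KD cells and 5678, 5667 and 6301 CPM in control cells, with overlapping groups and a log2 fold change of −0.09 ± 0.14. *Cxcl1*, a neutrophil chemokine, had 186, 236 and 202 CPM against 134, 150 and 166 CPM. Of 7 tested CXC chemokines, 2 lay above control in every library, against 4.83% of all genes, and none was called by edgeR. DESeq2 called *Cxcl9* (adjusted p = 0.00655).

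No cytokine gene was called by edgeR, and 3 were called by DESeq2: *Il34*, *Il18bp* and *Il16* (adjusted p = 0.0104 to 0.0452). *Il34*, a ligand of the CSF1 receptor, had 22.8, 22.6 and 20.03 CPM in *Adam17*-KD cells, against 14.9, 11.1 and 13.8 CPM in control cells. *Il18bp*, the secreted inhibitor of IL18, had 23.8, 29.6 and 23.7 CPM against 15.5, 16.5 and 12.7 CPM. *Il16* was at 1.03, 1.45 and 0.388 CPM in *Adam17*-KD cells and 0.238, 0.0758 and 0.243 CPM in control cells. Of 17 tested cytokine genes, 6 lay above control in every library and none below, where 4.83% of all genes lay above and 3.23% below.

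The next genes by p, not called, were taken by a fixed rule: the 12 of smallest p in each direction with a mean of at least 20 counts and groups that did not overlap, predicted and clone-named genes left out. Adjusted p ran from 0.077 to 0.135 for the higher ones and from 0.135 to 0.386 for the lower ones (edgeR), so each was short of the threshold. *Medag*, of adipocyte differentiation, had 3.51, 2.84 and 3.11 CPM in *Adam17*-KD cells, against 1.49, 0.986 and 0.776 CPM in control cells. *Slamf8*, a surface receptor of myeloid cells, had 71.6, 82.1 and 53.6 CPM against 36.4, 39.1 and 34.3 CPM. *Mgst1*, a microsomal glutathione transferase, had 50.7, 53.8 and 45.4 CPM in *Adam17*-KD cells and 25.3, 22.2 and 21.9 CPM in control cells. Each of these pairs of groups left a gap wider than the range within the control libraries, which the choice by p and non-overlap favours. *Slamf8* spread more within *Adam17*-KD cells (SD 14.4 CPM) than within control cells (SD 2.39 CPM). *Apod*, a lipid-carrying lipocalin, had 7.88, 14.3 and 8.69 CPM against 2.38, 1.82 and 2.33 CPM. The interferon-induced *Ifi27l2a* had 23.5, 19.1 and 15.3 CPM in *Adam17*-KD cells and 7.37, 3.26 and 6.21 CPM in control cells. *Lgals9*, which encodes galectin-9, had 157, 214 and 188 CPM against 102, 87.1 and 109 CPM. The remaining higher ones were *C3*, *H2-Aa*, *Phf11b*, *Wisp2*, *Capn6* and *Col1a2*.

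On the lower side, *Smtn*, of smooth muscle cytoskeleton, had 65.9, 70.5 and 61.9 CPM in *Adam17*-KD cells, against 103, 83.4 and 96.7 CPM in control cells. *Slc38a1*, a glutamine carrier, had 87.5, 98.5 and 94.2 CPM against 127, 131 and 122 CPM. *Enc1*, an actin-binding protein, had 86.1, 82.5 and 90.6 CPM in *Adam17*-KD cells and 118, 118 and 125 CPM in control cells. In these 3 the log2 fold changes were −0.52 to −0.44, and a small spread within the groups is favoured by the choice by p. *Tnc*, the matrix protein tenascin C, had 0.917, 1.69 and 1.94 CPM against 3.63, 7.21 and 5.00 CPM. *Cyp26b1*, which breaks down retinoic acid, had 1.19, 1.15 and 1.79 CPM in *Adam17*-KD cells and 4.75, 2.58 and 6.21 CPM in control cells. *Krt16*, a keratin, had 7.88, 7.55 and 7.92 CPM against 15.6, 18.1 and 13.9 CPM. The remaining lower ones were *Ptgs1*, *Dpysl3*, *Nol4*, *Areg*, *Btbd11* and *Ptprm*.

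**Figure D4:**
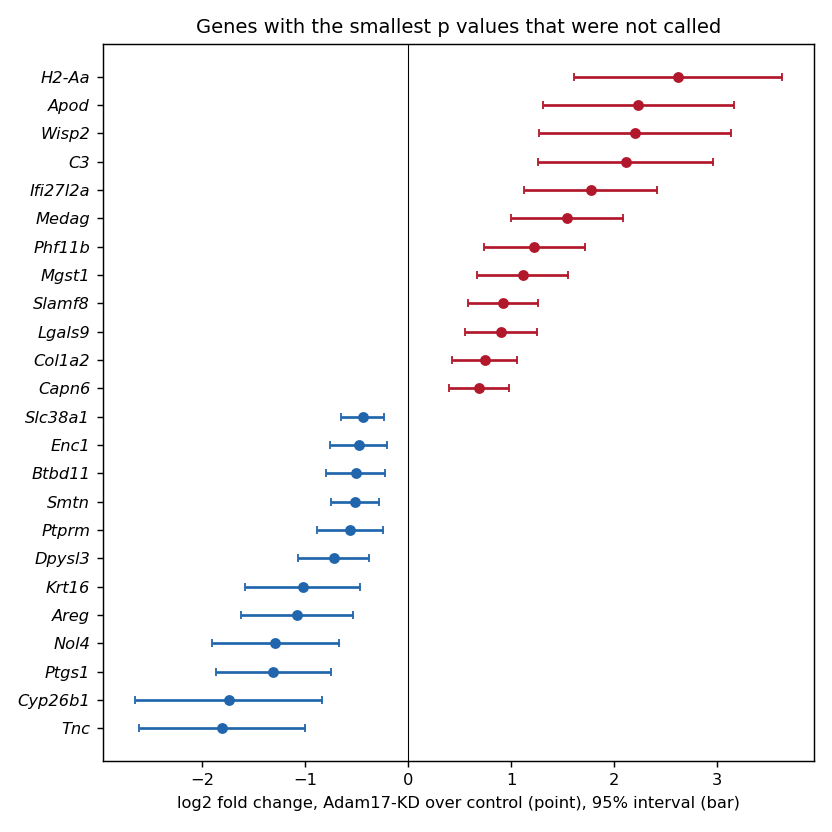
Log2 fold change of *Adam17*-KD over control (points) with 95% intervals (bars) of 24 genes not called by edgeR, the 12 of smallest p on each side that had non-overlapping groups and averaged 20 counts or more, predicted and clone-named genes left out. No interval reaches 0, as the choice by p ensures, and the adjusted p of each is 0.077 or more.

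No EGF receptor ligand, many of which ADAM17 sheds, passed the edgeR test, while DESeq2 called *Areg* (adjusted p = 0.0139). *Areg*, which encodes amphiregulin, had 4.10, 4.83 and 5.201 CPM in *Adam17*-KD cells, against 9.21, 8.04 and 12.4 CPM in control cells (log2 fold change −1.08 ± 0.25, adjusted p = 0.225). *Ereg* (epiregulin) had 25.6, 23.5 and 24.5 CPM against 31.1, 36.6 and 39.5 CPM (−0.54 ± 0.17, adjusted p = 0.568). *Nrg2* encodes a neuregulin, for which the study names ADAM10 as a major sheddase. *Nrg2* had 2.00, 1.33 and 1.47 CPM in *Adam17*-KD cells and 3.03, 2.58 and 2.72 CPM in control cells. Of 9 ligands and receptors tested, these 3 were below control in every library and none was above, against 3.23% and 4.83% of all genes.

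Genes that ERK signalling switches on downstream of the EGF receptor were mostly on the negative side, 24 of 34, with a median of −0.10 (−0.20 without control replicate 2). *Ier3*, an immediate early gene, had 229, 239 and 196 CPM in *Adam17*-KD cells, against 348, 277 and 308 CPM in control cells. *Dusp5*, a phosphatase that holds ERK in the nucleus, had 11.3, 9.06 and 11.2 CPM against 21.5, 12.1 and 18.6 CPM. *Dusp1*, a phosphatase of p38 and JNK, went against the list, with 8.90, 9.72 and 6.21 CPM in *Adam17*-KD cells and 3.39, 6.14 and 3.40 CPM in control cells. Apart from *Ier3* and *Dusp5* below and *Dusp1* above, the groups overlapped, and none of the 34 was called by edgeR or DESeq2. The shares of the list below (5.88%) and above (2.94%) were near those of all genes (3.23% and 4.83%).

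Of 22 tested surface proteins known to be shed, by ADAM17 or others, 4 lay above control in every library and none below. Over all genes 4.83% lay above and 3.23% below. None of the 22 was called by edgeR. DESeq2 called 1 of them, *Vcam1* (adjusted p = 0.00287). *Vcam1*, a leukocyte adhesion molecule, had 612, 598 and 741 CPM in *Adam17*-KD cells, against 394, 350 and 448 CPM in control cells (log2 fold change 0.71 ± 0.15, adjusted p = 0.142). *Il6ra*, the IL6 receptor, had 10.0, 10.3 and 7.61 CPM against 4.64, 6.75 and 3.98 CPM. These are transcript levels, and shedding itself was not measured.

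In the signalling parts of both cytokine pathways neither edgeR nor DESeq2 called a gene. Among 17 IL1 receptor signalling genes, no pair of groups was apart, the median was 0.05, and *Il1r1*, the receptor, had 12.1, 12.98 and 11.02 CPM in *Adam17*-KD cells and 6.12, 11.5 and 10.2 CPM in control cells. Among 26 NF-κB subunits, inhibitors and feedback genes the median was 0.01, with 2 genes above and 1 below in every library. These shares (7.69% and 3.85%) were near those of all genes (4.83% and 3.23%). *Tnfaip3*, which codes for the feedback inhibitor A20, had 31.4, 33.6 and 26.0 CPM in *Adam17*-KD cells and 21.7, 27.1 and 18.1 CPM in control cells. Among 23 genes of the IFNγ receptor, JAK-STAT and SOCS list the median was 0.05, with log2 fold changes of −0.46 to 0.59. *Irf7* had 112, 125 and 135 CPM against 107, 79.3 and 88.6 CPM, and *Ifngr1* and *Tyk2* were likewise above in every library. Besides these 3 (13%), 1 gene of the list (4.35%) was below in every library.

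NF-κB target genes had 6 of 19 tested members above control in every library and 1 below, against 4.83% and 3.23% of all genes. None was called by edgeR, and the median was 0.48 (0.34 without control replicate 2). DESeq2 called 3 of the 19, *C3*, *Vcam1* and *Sod2* (adjusted p = 0.000180 to 0.00749). *C3*, the central complement component, had 25.5, 38.2 and 12.03 CPM in *Adam17*-KD cells, against 6.89, 5.31 and 5.34 CPM in control cells (log2 fold change 2.11 ± 0.39, adjusted p = 0.117). *Sod2*, the mitochondrial superoxide dismutase, had 313, 373 and 340 CPM against 242, 228 and 268 CPM. *Ptgs2*, the inducible cyclooxygenase, was the 1 below, with 366, 421 and 454 CPM in *Adam17*-KD cells and 466, 655 and 525 CPM in control cells (−0.41 ± 0.15, adjusted p = 0.80).

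Of 12 complement genes described, 5 lay above control in every library and none below, against 4.83% and 3.23% of all genes. The median was 0.95 (1.05 without control replicate 2). *C1ra*, a protease of the classical pathway, had 125, 158 and 92.6 CPM in *Adam17*-KD cells, against 75.7, 47.9 and 78.9 CPM in control cells. *Cfb*, a protease of the alternative pathway, had 1.08, 1.09 and 1.24 CPM against 0.297, 0.455 and 0.243 CPM. *Serping1*, the inhibitor of the classical pathway proteases, had 1.24, 1.87 and 1.01 CPM in *Adam17*-KD cells and 0.416, 0.228 and 0.485 CPM in control cells. In *C3*, *C1ra* and *Serping1* replicate 2 was the highest of the *Adam17*-KD libraries.

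No gene of the type I interferon list was called by edgeR, and DESeq2 called 4: *Samhd1*, *Mx1*, *Bst2* and *Tmem173* (adjusted p = 0.000180 to 0.0195). Of the 56 genes, 49 were on the positive side, with a median of 0.23 (0.24 without control replicate 2). Above control in every library were 13 of them and below none, against 4.83% and 3.23% of all genes. *Samhd1*, which depletes nucleotides, had 1220, 1358 and 1134 CPM in *Adam17*-KD cells, against 827, 801 and 882 CPM in control cells (log2 fold change 0.56 ± 0.11, adjusted p = 0.136). *Mx1*, an antiviral GTPase, had 45.1, 62.4 and 52.2 CPM against 26.0, 21.8 and 23.96 CPM (1.15 ± 0.23, adjusted p = 0.136). *Bst2* (tetherin) had 403, 425 and 389 CPM in *Adam17*-KD cells and 298, 296 and 282 CPM in control cells. *Tmem173*, which encodes STING, had 95.1, 104 and 100 CPM against 70.1, 64.4 and 76.7 CPM.

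Guanylate-binding proteins and immunity-related GTPases, 19 tested, had a median of 0.36, with 18 on the positive side and none called by edgeR or DESeq2. In every library 3 were above control (15.8%), against 4.83% of all genes. *Tgtp1* had 285, 335 and 273 CPM in *Adam17*-KD cells, against 210, 235 and 250 CPM in control cells. *Gbp2*, at 5073, 6849 and 6720 CPM against 4212, 5245 and 5231 CPM, overlapped. These families hold near-identical copies, and how reads that map to several genes were handled is not given, so single members are uncertain. That holds for the H2, Phf11 and Ifi27 genes as well. *Casp1*, the inflammatory caspase, was above in every library, with 7.61, 12.7 and 14.3 CPM in *Adam17*-KD cells and 3.63, 5.39 and 4.22 CPM in control cells.

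MHC class II genes were at low levels, and DESeq2 called *H2-Aa*, *H2-Ab1* and *H2-DMa*, none of which edgeR did. *H2-Aa* had 3.99, 10.4 and 3.26 CPM in *Adam17*-KD cells, against 1.25, 0.910 and 0.728 CPM in control cells (log2 fold change 2.62 ± 0.47, adjusted p = 0.117). *H2-Ab1* had 2.00, 5.37 and 1.32 CPM against 0.713, 0.152 and 0.146 CPM. *Ciita*, the transactivator of this gene class, had 4.91, 8.997 and 4.04 CPM in *Adam17*-KD cells and 2.91, 1.14 and 2.13 CPM in control cells. *Adam17*-KD replicate 2 was highest in all 3 genes. Of the list, 6 of the 11 tested genes were above control in every library, against 4.83% of all genes. The list's median was 0.72 (0.81 without control replicate 2). *Ptprc*, which marks all leukocytes, had at most 1 count in any stimulated library, and 5 of 19 leukocyte markers were at 0 in all 6. Of the same list, 3 averaged over 1 CPM: *Cd14* at 19.3, *Cd68* at 2.32 and *Itgam* at 2.26 CPM. Whether other cells had a part in the class II levels was not tested.

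MHC class I and antigen-processing genes, 26 tested, had a median of 0.32 with 10 above control in every library and none below. Of all genes, 4.83% lay above and 3.23% below. None of the 26 was called by edgeR (smallest adjusted p = 0.647) or DESeq2. *H2-K1*, a class I heavy chain, had 2207, 2875 and 1940 CPM in *Adam17*-KD cells, against 1721, 1802 and 1826 CPM in control cells. *Psmb9*, of the immunoproteasome, had 279, 302 and 254 CPM against 213, 159 and 221 CPM. *Cd274*, which codes for the checkpoint ligand PD-L1, had 256, 356 and 342 CPM in *Adam17*-KD cells and 286, 603 and 263 CPM in control cells. Control replicate 2 set its direction: the log2 fold change was −0.27 with that library and 0.21 without it, with no call either way.

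Housekeeping and stress lists lay near or slightly below 0. The median was −0.10 for 40 ribosomal protein genes (−0.23 without control replicate 2), −0.08 for 43 cell cycle and DNA replication genes, −0.10 for 31 genes of the unfolded protein and integrated stress response and −0.03 for 23 p53 targets. For the ribosomal list no pair of groups was apart, and 32 of 40 members were negative. Of 27 cholesterol synthesis and sterol regulation genes, 25 were on the positive side, but the groups overlapped in each, and the median was 0.16. *Hmgcs1*, of early cholesterol synthesis, had 69.3, 57.4 and 62.1 CPM in *Adam17*-KD cells and 46.3, 58.4 and 50.3 CPM in control cells. No gene of these 5 lists was called by edgeR or DESeq2.

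**Figure D5:**
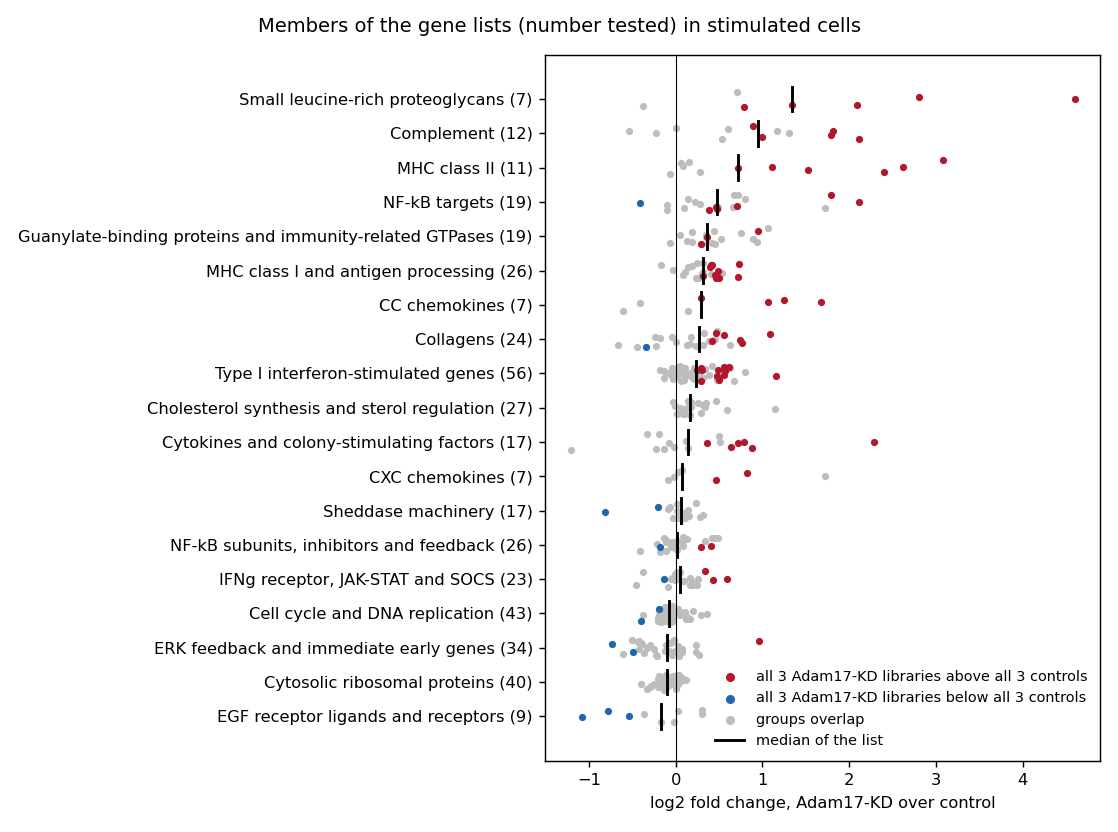
Log2 fold change of *Adam17*-KD over control (horizontal) for the members of 19 gene lists (rows, number tested in brackets), 1 point per gene, in red or blue where all 3 *Adam17*-KD libraries lie above or below all 3 control libraries and in grey where they overlap, with a bar at each list's median. Medians run from 1.34 for small leucine-rich proteoglycans to −0.16 for EGF receptor ligands and receptors, and the point at 4.61 is *Prelp*, with 1 count in the 3 control libraries together.

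The same contrast in unstimulated cells was set beside these values for the genes named above. There, edgeR called 69 of the 14673 genes. *Adam17* had a log2 fold change of −0.75 ± 0.12 there (adjusted p = 0.0136), *Cp* 1.33 ± 0.22 (adjusted p = 0.0149) and *Ogn* 1.33 ± 0.19 (adjusted p = 0.0112), so these 3 were called without cytokines too. Of the next genes by p, not called with cytokines, *Lgals9*, *Phf11b*, *Capn6*, *Areg*, *Wisp2*, *Slamf8* and *Col1a2* were called there in the same direction (adjusted p = 0.00684 to 0.0342, edgeR). *Nol4*, *Krt16* and *H2-Aa* had the opposite sign there (0.16 ± 0.25, 0.17 ± 0.30 and −1.76 ± 1.36) and were not called. Their differences were −1.45 (−2.26 to −0.63), −1.19 (−2.05 to −0.34) and 4.38 (1.19 to 7.58). The others kept their direction without a call. *Ccl7* had 0.92 ± 0.28 there (adjusted p = 0.272), at mean levels of 1.81 CPM in *Adam17*-KD cells and 0.928 CPM in control cells. The difference of the effects, stimulated minus unstimulated, was 0.75 for *Ccl7* (95% interval −0.01 to 1.51), 0.53 for *Cp* (−0.12 to 1.18) and 0.01 for *Ogn* (−0.57 to 0.59). For *Adam17* it was −0.07 (−0.43 to 0.30), and for *Nos2*, at 0.166 CPM in *Adam17*-KD cells and 0.231 CPM in control cells on average without cytokines, it was 1.09 (−0.58 to 2.76). It was −0.20 (−1.17 to 0.77) for *Ccl2* and −0.24 (−0.92 to 0.45) for *Oas1b*. *Ifit1*, alike in both groups with cytokines, had a log2 fold change of 0.55 ± 0.15 without them (adjusted p = 0.194, edgeR). Its difference of −0.54 had an interval short of 0 (−0.98 to −0.09). No gene passed the test of the difference (0 of 14673 by edgeR, the only tool run on it, with 222 at an unadjusted p under 0.05). List medians stood at 0.23 with cytokines and 0.73 without for the type I interferon list, and at 0.36 and 1.201 for the guanylate-binding protein list. For small leucine-rich proteoglycans they were 1.34 and 1.33, and for MHC class II genes 0.72 and 0.15. Without cytokines, *H2-Aa*, *H2-Ab1* and *Ciita* averaged 0.01265 to 0.0696 CPM in either group, while *H2-DMa* averaged 3.08 CPM in *Adam17*-KD cells and 2.32 CPM in control cells. The class II median without cytokines thus rests in part on genes near the floor and cannot show whether the effect differs with cytokines.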

How the data were processed

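Poly(A)+ RNA was sequenced from 12 Ion Total RNA-Seq libraries, of which the 6 stimulated ones were compared. The authors deposited a table of unnormalised counts per gene and library (43269 named genes). The genome build was mm10 per the submitters' processing notes. The aligner, the counter, the strand setting and the handling of multi-mapped reads are not given in the sources used here. The authors' own comparison tables (means, log2 fold changes, p-values) were not used. Left out were 1 line without a name and 2 lines whose names had become dates (0.00808% of counts).

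The edgeR 4.0.16 package in R 4.3.3 was used: filterByExpr (14673 genes), TMM scaling, 1 mean per group over all 12 libraries (8 residual degrees of freedom), quasi-likelihood F-tests of stimulated *Adam17*-KD against control, and Benjamini-Hochberg adjustment over all genes tested, with a threshold of 0.05. Every adjusted p without another tool named is from this fit. Intervals are 95%. Alternatives were RLE scaling, other filters, the 6 libraries alone, DESeq2 1.42.0, limma-voom (limma 3.58.1), a replicate block and leaving out each library. Fits with library quality weights, with a robust prior and of the 6 stimulated libraries less control replicate 2 were added after seeing the data.

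Named genes were *Adam10*, *Eef2*, *Polr2b* and the study's RT-qPCR genes, called genes, the 12 not called of smallest p in each direction (mean of at least 20 counts, groups apart, predicted and clone-named genes left out) and up to 6 members of smallest p per list. *Hmgcs1*, *H2-K1*, *Psmb9*, *Gbp2*, *Cxcl10*, *Tnfaip3*, *Il1r1*, *Cd274*, *Ccl8*, *Ccl11*, *Ccl12* and *Prelp* were partly chosen after their values were seen. The members, the 37 lists and the rule were chosen with earlier results of these data known. Of 829 list entries, 819 had a line in the table. 1 called gene is not reported here and was left out of the list counts and medians after its values were seen. Sequences are from RefSeq (GRCm38.p6) and positions from GENCODE vM21.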

Additional observations from a re-analysis of the deposited data

Results flagged for a closer look

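*Ccl5* was the gene, of those named, whose groups lay apart in opposite directions with and without cytokines. Its log2 fold change was 0.29 with cytokines, where all 3 *Adam17*-KD libraries lay above all 3 control libraries. It was −0.75 without cytokines, where *Adam17*-KD libraries had 41.3, 32.7 and 47.8 CPM, against 71.2, 74.9 and 58.5 CPM in control libraries. The difference of the effects was 1.04 (95% interval 0.56 to 1.52, unadjusted p = 0.000431) and did not pass the adjustment over all genes by edgeR. Of 14673 genes tested, 19 had this pattern.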

How the results depend on the processing

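The 5 calls were compared over 23 other fits. The count was 98 without a filter on low counts, all of them genes that also passed the filter, 74 with DESeq2, 50 with DESeq2 on the 6 stimulated libraries alone, 54 with limma-voom and quality weights, and 3 with edgeR on the 6 stimulated libraries, with or without control replicate 2. The cause of these shifts was not tested. With a replicate block it was 11 (9 higher and 2 lower), all 5 calls included. Deviations from the group mean correlated over genes at 0.448, 0.109 and −0.249 for same-numbered stimulated libraries of the 2 groups. For other-numbered ones they correlated at −0.544 to 0.371. With 3 libraries a group, the deviations are tied to each other, so these values cannot decide whether the numbers pair the libraries. Leaving out single libraries gave 0 to 6 calls, with 3 without any of the unstimulated *Adam17*-KD libraries or unstimulated control replicate 3. *Cp* kept a log2 fold change of 1.80 to 1.96 and *Ccl7* 1.54 to 1.76 when single libraries were left out. Values near 0 changed sign: *Ifit1* was −0.0022 without a filter, −0.0013 with DESeq2 on the 6 libraries and −0.068 with quality weights, and ran from −0.15 to 0.10 when single libraries were left out. *Oas1b* ran from −0.0078 to 0.47 on leaving out libraries. *Cd274* was 0.11 with quality weights, 0.21 with the 6 libraries less control replicate 2, and −0.48 to 0.21 when single libraries were left out. With 3 libraries a group, differences under about 1.35-fold were not resolved for a typical gene.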
